A study of Homo sapiens with 36 samples.

Results

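Keratins are the intermediate filament proteins of epithelial cells, and each filament is built from a type I and a type II chain. KRT8 (type II) and KRT18 (type I) form the basic pair of simple, single-layered epithelia, KRT7 (type II) and KRT19 (type I) join them in ducts and airways, and all 4 are used by pathologists to recognise carcinomas. The first intron of KRT18 is known from reporter studies as an enhancer with a site for AP-1, the transcription factor that pairs a Jun-family with a Fos-family protein. Binding and chromatin marks were described here at 6 keratin genes, namely KRT7, KRT8, KRT18, KRT19, KRT80 and KRT81, which were named as a gene list and not selected by a threshold on the peaks. They are 6 of 55 protein-coding keratin genes and of 20033 protein-coding genes in the annotation. The label of simple epithelial keratins fits the first 4 of them, since KRT80 is an epithelial type II keratin of other tissues as well and KRT81 is a type II hair keratin.

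The data were chromatin immunoprecipitation sequencing (ChIP-seq) peak lists from A549, an established lung adenocarcinoma cell line, and BEAS-2B (B2B), an established, immortalised and non-cancerous bronchial epithelial line. The labels gave 36 samples in 18 groups of 2 replicates, named no treatment for any group, and included 4 input samples, which were not analysed here. RNA polymerase II (pol II), the promoter mark H3K4me3, the active mark H3K27ac, the Mediator subunit Med1 and the Jun-family proteins JunB, Jun and JunD were profiled in both lines, and CTCF and the cohesin subunit Rad21 were analysed in B2B. The authors merged the replicates of each group before calling peaks, so every value below comes from 1 pooled list, carries no replicate error and could not be tested.

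A gene was counted as called for a target if a peak reached within 3 kb of any of its annotated start sites. Of 475211 peaks in the 16 lists, 244 did so at the 6 genes. KRT8 and KRT18 lie next to each other in opposite orientation, the nearest of their starts are 19 bp apart, and peaks there count for both genes. KRT81 has a near-identical neighbour, KRT86, so that short reads cannot always be placed between these genes. KRT19 lies on chromosome 17 past the end of both Med1 lists and of the A549 H3K27ac list, which leaves 40 gene and target combinations that both lines cover.

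Fold enrichment, the strength of a peak in the lists, was the ratio of pileup to local background, with a small constant added to each. Pileup is the number of reads at the summit. Both were solved from the fold enrichment and the p-value, the pileup as whole reads and the background as a decimal number. Both depend on sequencing depth, which was not given in the sources used here. The B2B background was high in several lists. Its median was 8.82 reads for pol II, 26.8 for H3K4me3 and 11.97 for H3K27ac, against 2.36, 3.37 and 2.27 reads in A549. It lay between 1.27 and 2.66 reads for the Jun family and Med1 in B2B and between 1.36 and 2.93 reads in A549. The median pileup was also higher in B2B for pol II, H3K4me3 and H3K27ac, at 55.5, 105 and 63 reads against 23, 54 and 37 in A549. Fold enrichments of the lines are therefore given side by side with pileup and background and are not read as a change. Peak lengths and the shares of a gene covered by peaks may depend on the background as well. They are given without a share over all genes and are not read as a change either.

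As a check on the line labels, H3K4me3 was examined at fixed marker genes. It was called at 4 of 6 epithelial genes in A549 and 3 of 6 in B2B, with CDH1, EPCAM and OCLN called in both lines and CLDN4 and GRHL2 in neither. All 5 mesenchymal markers were called in both lines. Of the 4 airway basal cell markers, TP63 and NGFR were called in A549 and none was called in B2B, so the lists did not mark B2B as basal cells by these genes. The basal keratins KRT5 and KRT14 were called in neither line. Of the 5 alveolar type II markers, 3 were called in A549 (SFTPC, NKX2-1 and NAPSA) and 2 in B2B (SFTPC and NKX2-1). Among all protein-coding genes, H3K4me3 was called at 73.7% in A549 and 62.7% in B2B. With so few markers, the check cannot tell whether the line labels are right.

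The DNA at some of the Jun-family summits is shown first. The regions were taken from those with the highest summed Jun-family fold enrichment in each class for each gene. The bases are the plus strand of hg38, and capitals mark the AP-1 motif, TGACTCA or TGAGTCA, which reads as the other form on the opposite strand. The strongest A549-alone region near KRT80 and the strongest B2B-alone region near KRT81 are not printed, and neither holds the motif. The printed set is richer in the motif than the 51 regions described below, of which 21 held it.

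KRT80 upstream, called in both lines, chr12:52192318-52192418: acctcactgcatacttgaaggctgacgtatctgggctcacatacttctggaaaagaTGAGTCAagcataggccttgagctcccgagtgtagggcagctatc

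KRT80 intron, B2B alone, chr12:52186216-52186316: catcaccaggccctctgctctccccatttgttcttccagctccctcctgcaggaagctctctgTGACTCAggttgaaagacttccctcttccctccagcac

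KRT7 intron, A549 alone, chr12:52247476-52247576: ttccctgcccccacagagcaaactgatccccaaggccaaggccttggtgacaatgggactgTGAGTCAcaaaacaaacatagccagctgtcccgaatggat

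KRT81 upstream, called in both lines, chr12:52327732-52327832: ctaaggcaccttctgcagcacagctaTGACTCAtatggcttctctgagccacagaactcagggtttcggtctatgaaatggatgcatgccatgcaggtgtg

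KRT8 downstream, called in both lines, chr12:52874319-52874419: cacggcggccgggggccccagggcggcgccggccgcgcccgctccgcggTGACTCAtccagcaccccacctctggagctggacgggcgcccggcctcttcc

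KRT18 and KRT8 starts, called in both lines, chr12:52949925-52949954: tggctaaggcTGAGTCAtctaggagtaaac

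KRT19 upstream, A549 alone, chr17:41530231-41530331: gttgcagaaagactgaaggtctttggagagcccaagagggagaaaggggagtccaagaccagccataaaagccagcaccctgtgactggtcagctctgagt

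KRT19 far upstream, called in both lines, chr17:41548054-41548154: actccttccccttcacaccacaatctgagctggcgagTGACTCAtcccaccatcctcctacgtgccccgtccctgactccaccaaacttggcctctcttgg

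To ask which of these genes carry the marks in which line, the 40 combinations were compared. A peak was called in both lines in 26 of them, in A549 alone in 6, in B2B alone in 0 and in neither line in 8. KRT8 and KRT18 were called for all 7 targets in both lines. KRT7 and KRT80 were called for 6 targets in both lines and for JunD in A549 alone. KRT19 and KRT81 had no target called in both lines: KRT19 had JunB and Jun in A549 alone, and KRT81 had pol II and H3K27ac in A549 alone. All 7 targets were called at 4 of the 5 genes that every list covers in A549 and at 2 of 5 in B2B, which compares with 13.2% and 2.26% of the 12763 protein-coding genes that every list covers. The 2 in B2B were KRT8 and KRT18, which share the same B2B JunD peak and are not independent. At KRT8 starts away from KRT18, JunD was called in A549 alone.

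**Figure D1:**
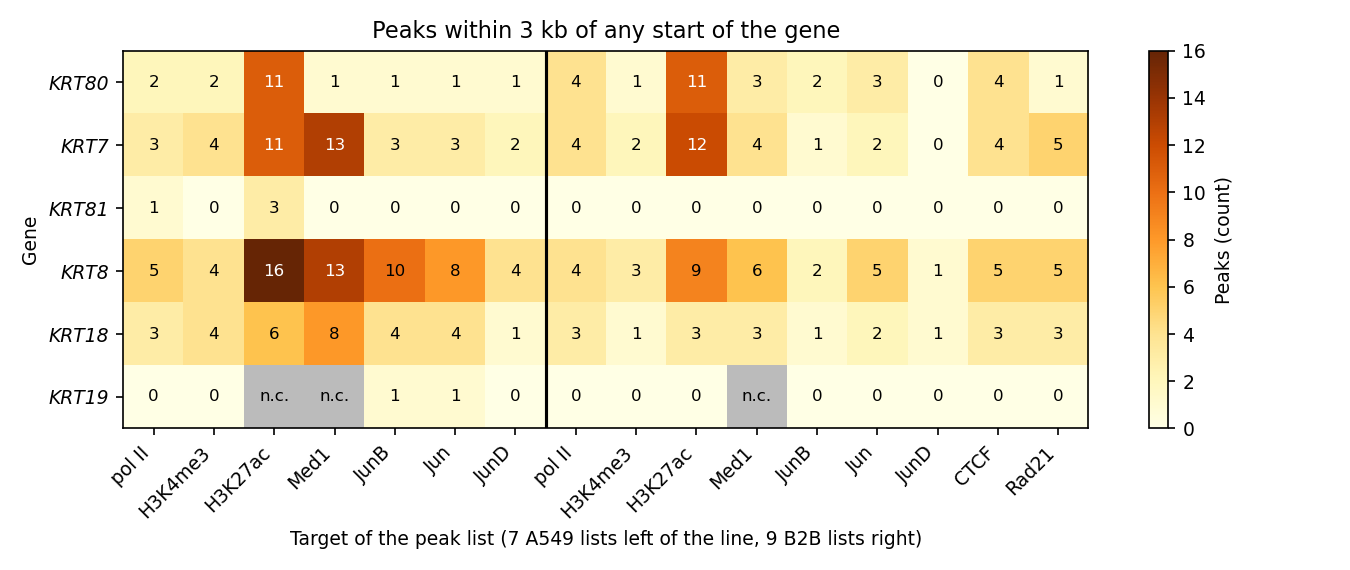
Number of peaks within 3 kb of any annotated start of each of the 6 genes (rows) in each of the 16 pooled lists (columns; n.c., the list ends before the gene). KRT8 held 10 JunB peaks in A549 and 2 in B2B, and KRT81 held peaks of pol II and H3K27ac in A549 and none in B2B.

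For the promoter and enhancer marks, most of the genes were called in both lines, as were most genes in the genome. Pol II was called at 5 of 6 genes in A549 and 4 of 6 in B2B, where the 17906 protein-coding genes before the end of the A549 pol II list, on chromosome 20, gave 69.6% and 51.9%, with 19.5% in A549 alone and 1.84% in B2B alone. H3K4me3 was called at 4 of 6 in each line, beside, over all 20033 genes, 73.7% in A549, 62.7% in B2B, 12.9% in A549 alone and 1.87% in B2B alone. H3K27ac was called at 5 of 5 in A549 and 4 of 5 in B2B, beside, over the 12763 genes that the A549 list covers, 73.5%, 64.3%, 11.2% in A549 alone and 2.04% in B2B alone. Med1 was called at 4 of 5 in each line, beside, over 13802 covered genes, 54.7%, 61.1%, 3.86% in A549 alone and 10.3% in B2B alone.

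The Jun-family proteins were called at fewer genes in B2B than in A549, both among all genes and among these 6. JunB was called at 5 of 6 genes in A549 and 4 of 6 in B2B, beside 31.1% and 5.28% of all protein-coding genes, with 26.7% in A549 alone and 0.953% in B2B alone. Jun was called at 5 of 6 and 4 of 6, beside 38.2% and 25.4%, with 19.3% in A549 alone and 6.5% in B2B alone. JunD was called at 4 of 6 and 2 of 6, beside 17.8% and 3.21%, with 16.2% in A549 alone and 1.57% in B2B alone. The 2 B2B calls of JunD, at KRT8 and KRT18, came from the same peak. In the B2B lists, CTCF and Rad21 were each called at 4 of 6 genes, beside 50.1% and 67.9%, and the genes without a call were KRT19 and KRT81. With canonical starts alone, JunB at KRT7 and KRT8 and JunD at KRT8 were called in A549 alone and JunD at KRT7 was called in neither line, which gave 8 A549-alone calls.

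KRT8 (ENSG00000170421.13, minus strand, chr12:52897187-52949954) has annotated starts in 3 clusters. At the canonical start, position 52905076, the A549 pol II peak had a fold enrichment of 96.6, which placed it at the 98.8th percentile of its list, with 314 reads over a background of 2.26. The B2B pol II peak there had a fold enrichment of 12.02, at the 92.3rd percentile of its list, with 229 reads over a background of 18.1. The pileups thus differed less than the fold enrichments, and the background was the larger difference. Pol II pileups ran higher in the B2B list as a whole, with a median of 55.5 reads against 23 in A549. The pol II peaks at this start also differed in length, 10459 bp in A549 against 383 bp in B2B. H3K4me3 there gave 184 reads over 3.92 in A549 and 149 reads over 18.3 in B2B.

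The Jun-family calls at the canonical KRT8 start differed between the lists. JunB had its highest fold enrichment at the KRT8 starts 1070 bp inside the gene, at 29.8 with 104 reads in A549, and the B2B list had no JunB peak within 3 kb of this cluster of starts. Jun at the same place had 72 reads over a background of 1.59 in A549 and 96 reads over 16.7 in B2B, which gave fold enrichments of 28.2 and 5.47. JunD was called in A549 at a fold enrichment of 5.57 and was not called in B2B.

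The strongest shared region near KRT8 lay 30707 bp past its canonical start, outside the gene. Jun had 128 reads over a background of 1.43 in A549 and 137 reads over 34.0 in B2B, with fold enrichments of 53.0 and 3.95. JunB had 118 reads over 2.28 in A549 and 133 reads over 52.8 in B2B, with fold enrichments of 36.3 and 2.49. JunD was called in A549 alone, at a fold enrichment of 15.8. The pileups of Jun and JunB were as high in B2B as in A549, over a much higher background, and the motif lay 2 bp from the summit.

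KRT18 (ENSG00000111057.11, plus strand, chr12:52948871-52952906) had Jun-family peaks at nearly the same base in both lines. The Jun summit of each line lay at position 52949940, 822 bp past the canonical start and 14 bp from the nearest alternative start of KRT8. Jun had 113 reads over a background of 2.09 in A549 and 108 reads over 4.18 in B2B, with fold enrichments of 36.9 and 21.0. JunB had 73 reads over 3.42 in A549 and 58 over 6.30 in B2B, with fold enrichments of 16.7 and 8.08. JunD had 41 reads over 3.68 and 35 over 6.15, with fold enrichments of 8.97 and 5.04. The centre of the AP-1 motif lay 2 bp from the summit. This was 1 of 2 regions near the 6 genes at which all 3 proteins were called in B2B.

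Pol II and H3K4me3 were called at KRT18 in both lines, with peaks of different length. The A549 pol II peak at the KRT18 start spanned 6534 bp and had 279 reads over a background of 2.58, and the B2B peak at the same position spanned 316 bp and had 145 reads over 39.7. A separate B2B pol II peak lay 714 bp past the start, with 91 reads over 7.20. Pol II peaks covered 100% of the KRT18 gene in A549 and 25.3% in B2B, and H3K4me3 peaks covered 100% and 51.4%.

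**Figure D2:**
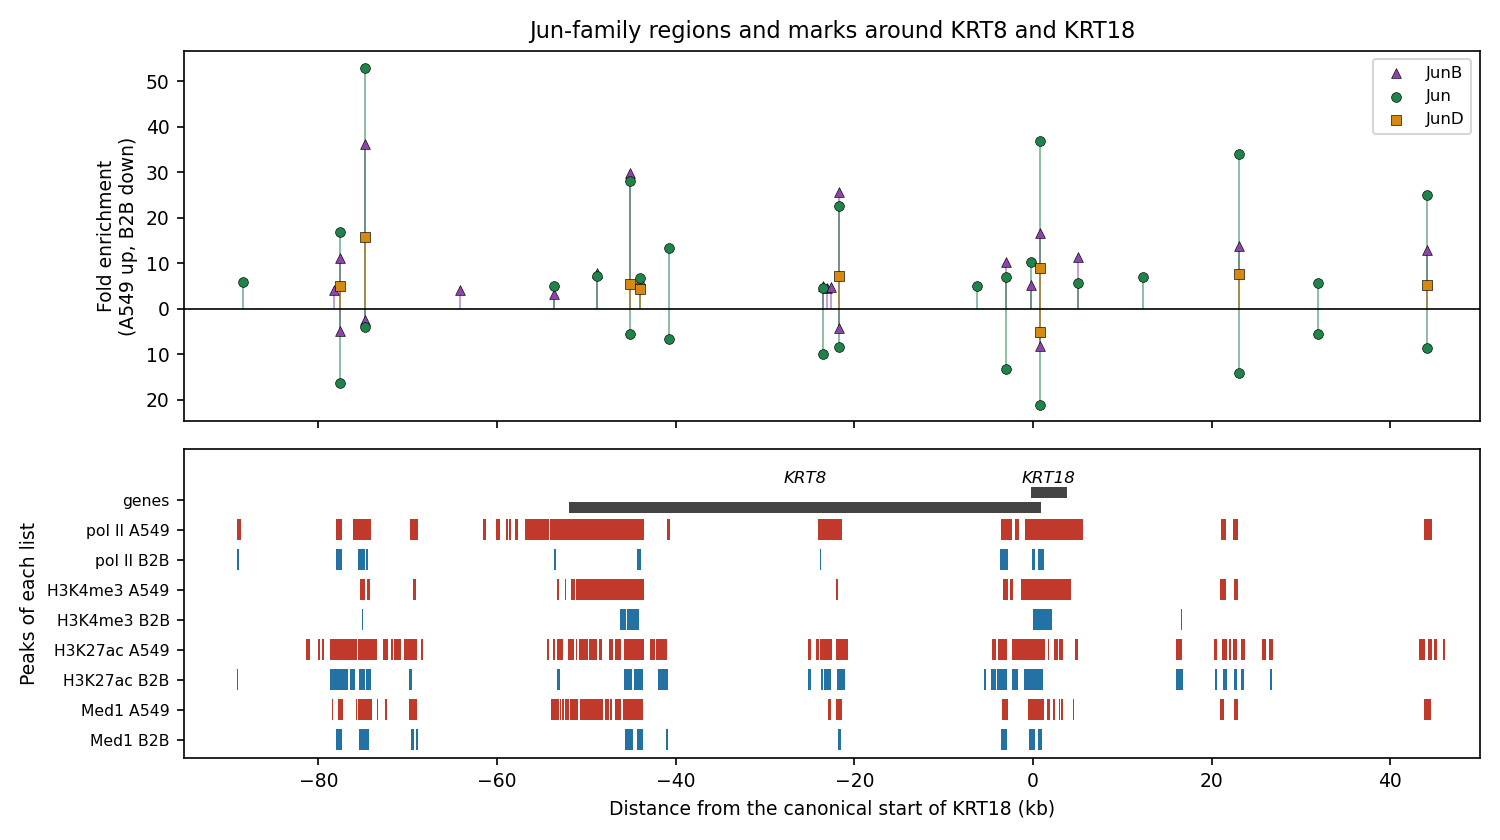
Jun-family fold enrichment at the 23 regions around KRT8 and KRT18 (upper panel, A549 above and B2B below the zero line, each region drawn at its strongest summit) and the peaks of 4 marks in each line (lower panel), against distance in kb from the canonical KRT18 start. Regions called in B2B were also called in A549, and the pol II and H3K4me3 peaks at both genes were longer in A549.

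KRT80 (ENSG00000167767.14, minus strand, chr12:52168996-52192014) carried the highest Jun fold enrichment near the 6 genes. The Jun peak in A549, 354 bp upstream of the start, had a fold enrichment of 81.9 and stood at the 99.9th percentile of its list, with 187 reads over a background of 1.30. The B2B Jun peak in the same region had 193 reads over a background of 8.92, and its fold enrichment was 19.5. The pileup was therefore no lower in B2B, while the background was higher. JunB had 98 reads over 2.99 in A549 and 89 reads over 16.3 in B2B. JunD was called in A549, with 51 reads and a fold enrichment of 15.95, and was not called in B2B. The motif lay 9 bp from the summit.

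Pol II at the KRT80 start was called in both lines, with 152 reads over a background of 2.04 in A549 and 130 reads over 35.8 in B2B. The fold enrichment of the latter, 3.56, was below that of another B2B peak, 869 bp into the gene, with 69 reads over 9.30. H3K27ac had 313 reads over 2.01 in A549 and 292 over 25.3 in B2B. H3K4me3 had 126 reads over 3.49 in A549, whereas the B2B peak had 83 reads over 41.3 and a fold enrichment of 1.99, at the 8.54th percentile of its list. Pol II peaks covered 56.7% of the gene in A549 and 5.29% in B2B, and H3K27ac peaks covered 39.8% and 49.8%, the only one of the 4 marks besides Med1 with the larger share in B2B. For Med1 these shares were 4.54% and 10.1%.

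KRT7 (ENSG00000135480.17, plus strand, chr12:52232520-52252186) had the largest gap between the lines in pol II coverage of the 6 genes. Pol II peaks covered 98.3% of the gene in A549 and 4.14% in B2B, and 1 A549 peak ran for 30318 bp across the gene body and past its end. At the canonical start, pol II had 304 reads over 3.75 in A549. The nearest pol II peak in B2B lay 2686 bp upstream, with 53 reads over 7.21. H3K4me3 had 166 reads over 4.41 in A549. Its B2B peaks had 87 reads over 34.2 and 42 reads over 15.1, with fold enrichments of 2.50 and 2.68. H3K27ac peaks covered 58.1% of the gene in A549 and 31.1% in B2B.

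Within KRT7 an intronic region, 14283 bp past the canonical start, was called for all 3 Jun-family proteins in A549 and for none in B2B. JunB had 113 reads and a fold enrichment of 25.4, Jun had 72 reads and 23.3, and JunD had 46 reads and 9.95. Its motif lay 14 bp from the summit, as printed above. At 10998 bp past the start, a shared intronic region was called for JunB and Jun in both lines. There Jun had 61 reads over 2.19 in A549 and 102 over 8.86 in B2B, and JunB had 82 over 4.56 and 78 over 16.9.

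KRT81 (ENSG00000205426.11, minus strand, chr12:52285913-52291534) was called in A549 alone, and mostly away from its start. The pol II peak that reached the 3 kb window had its summit 3413 bp into the gene, with 114 reads over 3.78 and a fold enrichment of 24.1. H3K27ac had its strongest peak 4355 bp into the gene, at a fold enrichment of 21.9, and weaker peaks at 752 and 1332 bp with fold enrichments of 5.12 and 4.94. In A549, pol II covered 47.5% of the gene, H3K4me3 39.5%, H3K27ac 62.8% and Med1 24.6%, and each of these was 0 in B2B. Whether these reads belong to KRT81 or to its paralogue KRT86 cannot be told apart. No Jun-family peak lay within 3 kb of the KRT81 start in either line.

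The KRT81 surroundings held both kinds of Jun-family region. In an intron of KRT86, 10937 bp past the KRT81 start, Jun had 120 reads over 3.02 in A549 and 92 over 2.15 in B2B, with fold enrichments of 30.1 and 29.5. This was the highest Jun fold enrichment of B2B near the 6 genes, and no AP-1 motif lay within 50 bp of the summit. The region 36248 bp upstream, at chr12:52327537-52328003, was called for all 3 proteins in both lines, the other such region besides that of KRT18. Jun had 69 reads over 1.94 there in A549 and 71 over 3.17 in B2B.

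**Figure D3:**
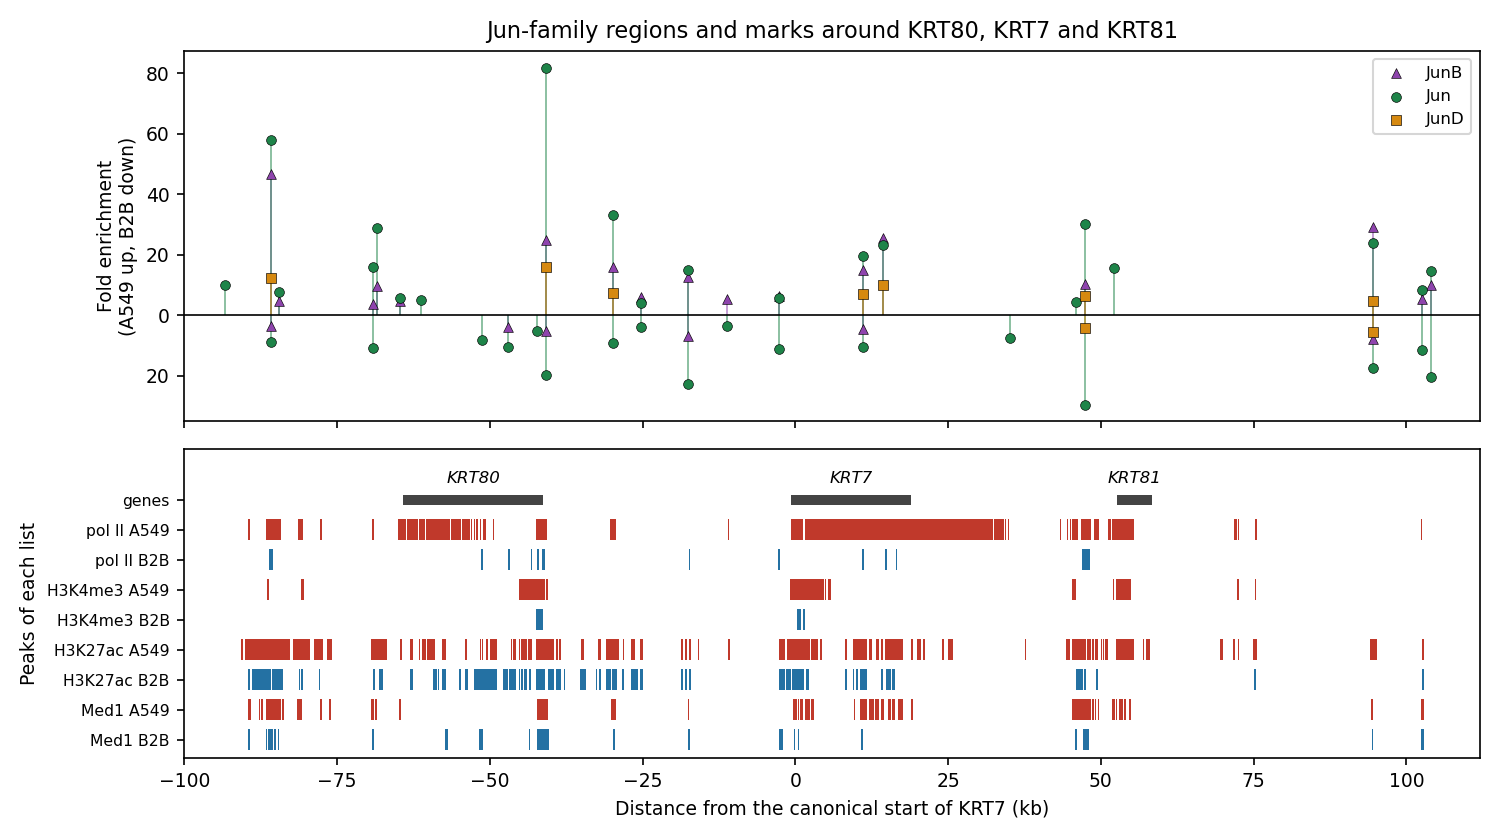
Jun-family fold enrichment at the 25 regions around KRT80, KRT7 and KRT81 (upper panel, A549 above and B2B below the zero line) and the peaks of 4 marks in each line (lower panel), against distance in kb from the canonical KRT7 start. The region just upstream of KRT80 reached 81.9 for Jun in A549 and 19.5 in B2B, and 1 pol II peak ran for 30318 bp across KRT7 in A549.

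KRT19 (ENSG00000171345.13, minus strand, chr17:41523617-41528308) lacked promoter calls in both lines. No pol II or H3K4me3 peak lay within 3 kb of its starts or over its body in A549 or B2B, and no H3K27ac, CTCF or Rad21 peak in B2B. The A549 calls came from 1 weak region 1973 bp upstream, where JunB had 31 reads over 3.58, at the 52.5th percentile of its list, and Jun had 12 reads over 1.66, at the 5.36th percentile. The sequence there, printed above, holds no AP-1 motif. A shared region 19796 bp upstream was stronger. JunB had 100 reads and a fold enrichment of 25.3 in A549 and was not called in B2B, and Jun had 35 reads over 1.84 in A549 and 64 over 7.87 in B2B. Its motif lay 10 bp from the summit.

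To ask how the surroundings of the genes compare, Jun-family peaks of the 6 lists within 50 kb of a start were merged into regions, with the genes sharing regions where their windows overlap. At least 1 Jun-family peak lay within 50 kb of all 6 genes in both lines, as it did for 83.0% of protein-coding genes in A549 and 75.3% in B2B. The counts of peaks were high at 5 of the genes. Counted from the canonical start, KRT8 had 38 Jun-family peaks in A549 and 13 in B2B, KRT18 had 36 and 12, KRT80 had 25 and 15, KRT7 had 24 and 16, and KRT81 had 19 and 10. These stood at or above the 97.4th percentile of all protein-coding genes in each line, where the median was 3 peaks in A549 and 2 in B2B. KRT19, with 5 and 1 peaks, stood at the 70.2nd and 49.8th percentiles.

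The peaks formed 51 regions, of which 25 (49.02%) were called in both lines, 22 (43.1%) in A549 alone and 4 (7.84%) in B2B alone. Over all chromosomes, 26.5% of Jun-family regions were called in both lines, 34.1% in A549 alone and 39.4% in B2B alone. Around KRT8 and KRT18, A549 and B2B shared 11 of 23 regions, A549 alone had 12 and B2B alone had 0. Around KRT80, KRT7 and KRT81, the lines shared 13 of 25, A549 alone had 8 and B2B alone had 4. Of the 51 regions, 22 had their summit between genes, 25 in an intron and 4 at an exon of some transcript. The strongest of the B2B-alone regions, in an intron of KRT80, had 51 Jun reads over 3.99 and a fold enrichment of 10.4, and held an AP-1 motif. Another, in a KRT86 intron near KRT81, had a Jun fold enrichment of 7.41 and no motif. The strongest region of A549 alone near KRT80, 27238 bp past its start, had a Jun fold enrichment of 28.8 and no motif.

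The proteins differed in how many of the 51 regions they were called in. Jun was called in 42 in A549 and 29 in B2B, beside 48.6% and 62.1% of all Jun-family regions. JunB was called in 37 and 10, beside 38.5% and 11.6%, and the whole JunB lists differed as well, with 28068 peaks in A549 and 8563 in B2B. JunD was called in 15 and 3, beside 12.5% and 11.2%. All 3 proteins were called in 15 regions in A549 and in 2 in B2B. By number of proteins in A549, 15 regions had 1, 17 had 2 and 15 had all 3. Over all chromosomes these counts were 22237, 14728 and 6667. Of the 15 A549 regions with all 3 proteins, 13 were shared with B2B. Of the 22 regions called in A549 alone, 12 had 1 protein, 8 had 2 and 2 had all 3. Shares over all chromosomes were not computed for the B2B count or for these splits by class.

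In the shared regions the fold enrichments and the pileups gave different orders for Jun, but not for JunB or JunD. For Jun, 24 shared regions had a peak in both lists, and the fold enrichment was higher in A549 in 18 of them, beside 53.8% of such regions over all chromosomes. The pileup was higher in A549 in 7 of the 24, with medians of 61 reads in A549 and 67.5 in B2B. The background was higher in B2B in 21 of the 24, with medians of 1.998 and 4.24 reads. For JunB, the fold enrichment was higher in A549 in 9 of 9 regions, beside 74.0% over all chromosomes, and the pileup was higher in 8 of 9, with medians of 98 and 58 reads. The JunB background was higher in B2B in 9 of 9, with medians of 3.42 and 10.95 reads. For JunD, the fold enrichment was higher in A549 in 2 of 3 regions, beside 53.2%. The JunD pileup was higher in A549 in 2 of 3 as well, with a median of 32 reads in each line. Shares over all chromosomes were not computed for pileup or background, so those counts cannot be set against other shared regions. The part of the higher B2B background in the missing B2B calls was not tested.

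**Figure D4:**
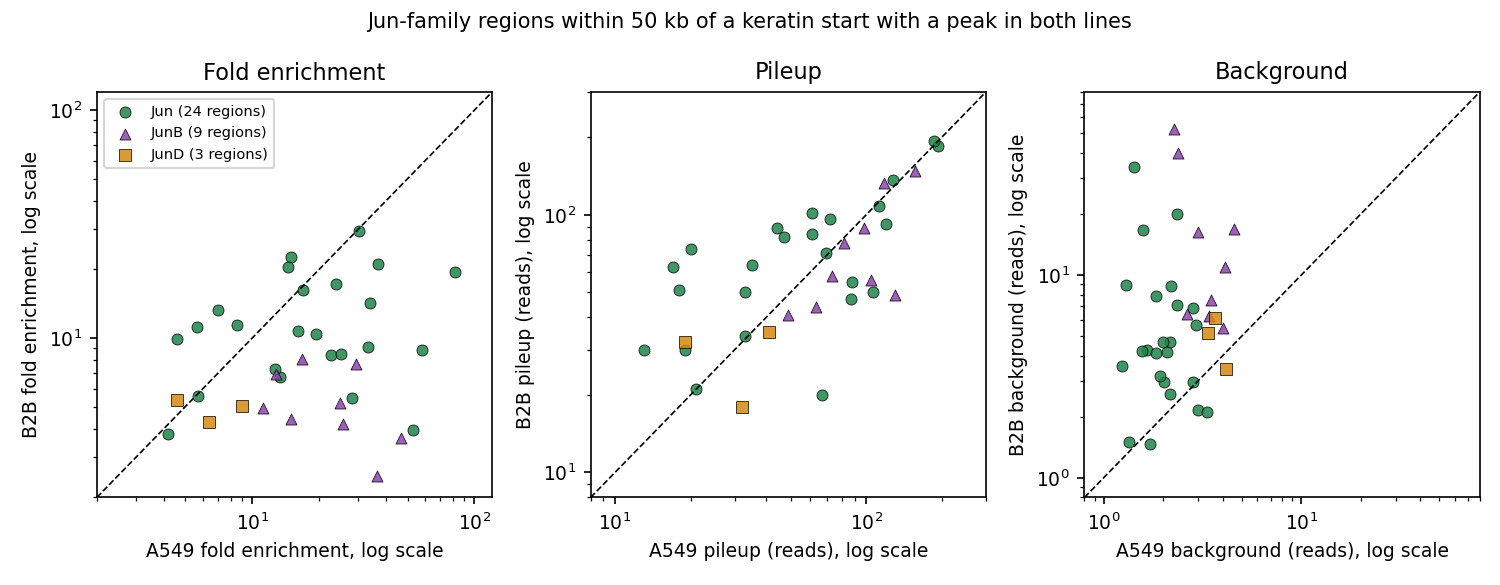
Fold enrichment, pileup in reads and local background in reads of Jun, JunB and JunD in A549 (x axes) and B2B (y axes), on log scales, at regions within 50 kb of the 6 genes with a peak of the protein in both lines; the dashed line marks equal values. Jun lay below the line for fold enrichment in 18 of 24 regions and above it for background in 21 of 24.

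The regions on chromosome 12 were also compared with the other marks, beside all Jun-family regions of the same class on chromosomes 1 to 12. Of the 24 shared regions, pol II peaks overlapped 18 in A549 and 11 in B2B, beside 38.7% and 26.8% of all such regions, and H3K27ac peaks overlapped 21 and 19, beside 22.4% and 19.3%. Of the 20 regions called for the Jun family in A549 alone, pol II peaks overlapped 13 in A549 and 3 in B2B, beside 44.1% and 19.6%, and H3K27ac peaks overlapped 13 and 8, beside 34.6% and 24.2%. Some of the A549-alone regions were therefore marked in B2B as well. Of the 4 regions of B2B alone, pol II peaks overlapped 2 in A549 and 3 in B2B, beside 2.88% and 12.4%, and H3K27ac peaks overlapped 2 and 3, beside 1.71% and 7.4%. No difference between the classes was tested.

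CTCF and Rad21, which mark insulators and loop anchors, were called at several of the regions in B2B. CTCF peaks overlapped 18 of all 25 shared regions, 7 of the 22 A549-alone regions and 2 of the 4 B2B-alone regions, beside 39.7%, 13.2% and 26.5% of such regions on all chromosomes. At the shared regions these CTCF peaks ranged from weak to strong. Their fold enrichments ran from 2.04 to 55.6, where the median of the list was 8.86. Rad21 peaks overlapped 14, 6 and 1 regions of these classes, for which no share over all chromosomes was computed. Within 50 kb of the genes, 30 of 51 CTCF peaks on chromosome 12 and 4 of 4 on chromosome 17 overlapped a Rad21 peak, beside 36.3% of all CTCF peaks in B2B.

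To describe the sequence under the peaks, the AP-1 motif was searched within 50 bp of the summits. It was found at 21 of the 51 regions (41.2%, exact 95% interval 27.6 to 55.8%). By class it was found at 16 of 25 shared regions (64.0%, 42.5 to 82.0%), 4 of 22 regions of A549 alone (18.2%, 5.19 to 40.3%) and 1 of 4 of B2B alone (0.631 to 80.6%). Over all chromosomes the shares were 51.5% for shared regions, 29.7% for A549 alone and 28.7% for B2B alone, again highest for shared regions. By number of Jun-family proteins in A549, the motif was found at 12 of 15 regions with all 3, 7 of 17 with 2 and 1 of 15 with 1, beside 49.5%, 51.2% and 28.3% of all such regions. The intervals cover counting error only, and regions of 1 locus are not independent.

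**Figure D5:**
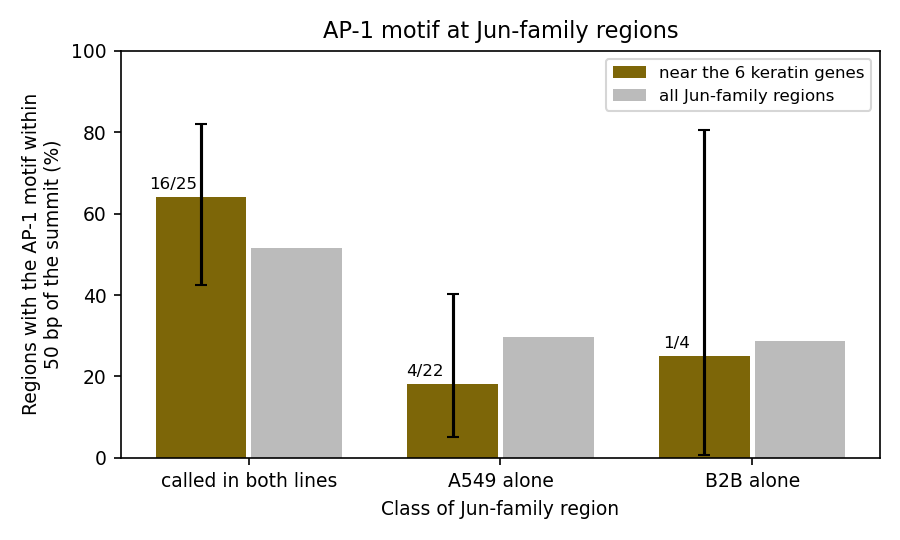
Share of Jun-family regions with the AP-1 motif within 50 bp of the strongest summit, for the 51 regions near the 6 genes (dark bars, with exact 95% binomial intervals and counts) and for all regions of the genome (grey bars), by the lines in which the region was called. The shared regions near the genes held the motif in 16 of 25 cases and those of A549 alone in 4 of 22.

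List by list, the motif lay at 21 of 42 Jun summits near the genes in A549, beside 42.0% of all Jun summits of that list. It lay at 20 of 38 JunB summits in A549, beside 46.2%, and at 10 of 17 JunD summits, beside 34.2%. In B2B it lay at 16 of 29 Jun summits, beside 39.8%, at 10 of 10 JunB summits, beside 53.6%, and at 2 of 3 JunD summits, beside 42.8%. None of the 6 genes held the motif in the window from 250 bp before to 50 bp after its canonical start, a window that holds it in 3.57% of protein-coding genes.

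Few calls were made at the keratins of the other lists. The lists of H3K27ac and Med1 do not reach all of these genes. Both lines cover 4 of 8 basal, 5 of 8 mucosal and cornified, 5 of 13 hair and 0 of 3 other simple-type keratins. Of 8 basal keratins of stratified epithelia, 0 had pol II, H3K4me3 or a Jun-family protein called in both lines. KRT17 had pol II, H3K4me3 and Jun in B2B alone, KRT16 had pol II and Jun in B2B alone and JunB in A549 alone, and KRT5 had JunB and Jun in A549 alone. The highest B2B pol II fold enrichment was 11.2 at both KRT17 and KRT16, so this may be the same peak. Both genes also had H3K27ac peaks in B2B, where the A549 list does not reach. Of 8 mucosal and cornified keratins, KRT10 had H3K4me3 in both lines and KRT78 had Jun in B2B alone. Of 3 other keratins of simple type, KRT222 had H3K4me3 in both lines, and KRT20 and KRT23 had no call for the targets covered in both lines. Of 13 hair keratins, KRT34 had pol II, JunB and Jun in B2B alone, KRT33B and KRT38 had Jun in B2B alone, and KRT85 had pol II in A549 alone. KRT86 had 4 targets in A549 alone and 2 in both lines, but a start of KRT86 lies 1382 bp from a start of KRT7 and shares its peaks.

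Calls were also counted at genes whose products tie keratin filaments to cell junctions. Of 12 such genes, pol II was called in both lines at 4, in A549 alone at 6 and in B2B alone at 0, and H3K4me3 at 7, 3 and 0. Among all covered protein-coding genes, pol II was called in A549 alone at 19.5% and in B2B alone at 1.84%. For H3K4me3 these shares were 12.9% and 1.87%. The H3K27ac and Med1 lists of both lines cover 7 of the 12 genes. PKP3, a plakophilin of desmosomes, had 4 targets in A549 alone and Med1 in B2B alone. The desmosomal cadherin gene DSC2 and the envoplakin gene EVPL had pol II and H3K4me3 in A549 alone. PKP2, another plakophilin gene, had pol II in A549 alone and Jun in B2B alone.

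By its pattern of calls over the 16 lists, each gene was compared with the 49 other keratin genes. KRT7 and KRT80 were most like KRT86, sharing 10 of the 15 lists in which either had a call (Jaccard index 0.667), and KRT8 and KRT18 were most like KRT86 as well, with 10 of 16 lists (0.625). KRT19 had the same 2 lists as KRT5, and KRT81 shared 1 of 3 lists with KRT85. KRT86 shares peaks with alternative KRT7 starts far inside that gene, such as the A549 JunB peak 14283 bp past the canonical KRT7 start. KRT19 was counted as not called in the lists that do not reach it. The starts of KRT7-AS and METTL7AP1 also lie within 3 kb of a start of KRT7. A start of KRT15 lies 2222 bp from a start of KRT19, but KRT15 had no call in either line for pol II, H3K4me3, JunB, Jun or JunD.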

How the data were processed

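ChIP-seq peak lists of 16 groups (7 in A549, 9 in B2B) were used. According to the methods and the submitters' processing notes, reads were aligned to hg38 with Bowtie2 2.4.4, duplicates were removed, the 2 replicates of a group were merged and scaled across the lines by read depth with SAMtools 1.13, and peaks were called with MACS2 2.2.7.1. The control and options of the caller were not given in the sources used here. The authors deposited a fold enrichment, −log10 p-values and −log10 q-values per peak. The fold enrichment is a ratio of pileup to local background, with a small constant added to each. The lowest −log10 q was just above 2. Whether that scaling entered the peak calling was not given in the sources used here. The number of value columns left unused was 0.

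Starts came from GENCODE release 44 on hg38, the build of the lists. A call was a peak overlapping 3 kb on either side of any start. Pileup and background were solved from fold enrichment and p-value. The pileup fitted as whole reads, within 0.01 in −log10 p, for 100% of up to 2000 sampled peaks per list. Jun-family peaks were merged at an overlap of 1 bp, and a region's summit was that of its peak with the highest fold enrichment. Sequence was read from hg38. The RefSeq promoter table held 1 of the 6 genes and was not used further. Python 3.11.15, NumPy 2.4.6, pandas 2.3.3, SciPy 1.17.1 and Matplotlib 3.10.9 were used, and the overlap, pileup and motif functions were tested on simulated data.

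The genes, the keratin lists and the markers were chosen with earlier results of these data known. Besides the 6 genes, named genes were those with a start within 3 kb, up to 4 genes per list with the most targets in 1 line alone, the most alike keratin of each gene (KRT85 for KRT81), and the strongest region of each class. The strongest A549-alone region shared by KRT8 and KRT18 is not reported here. The KRT86 intron region with the highest B2B Jun fold enrichment, and the regions inside KRT8 and KRT7 that are no class leader, and the pol II call of KRT85 among the hair keratins, were named after their values were seen. No test across samples was possible, because each list pools its replicates.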

Additional observations from a re-analysis of the deposited data

How the results depend on the processing

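No paired analysis was possible because the replicates were merged before peak calling, and for the same reason no replicate could be left out. Of 138 values under the alternatives, 131 stayed within 1.5 times the count (motif shares within their exact 95% interval) and 7 did not. The 6 combinations in A549 alone became 3 in a window of 1 kb (JunD at KRT7 and KRT80, H3K27ac at KRT81) and lay between 4 and 8 otherwise, and B2B alone was 0 under every alternative. Leaving out pol II, H3K4me3 and H3K27ac, the lists with a high median B2B background, left 14 of 23 combinations in both lines and 4 in A549 alone. The kept JunB lists still had median backgrounds of 10.95 reads in B2B and 3.42 in A549 at the shared regions. That alternative therefore does not remove the difference in background at these genes. With KRT8 taken only at starts away from KRT18, 25 of 40 were in both lines, and JunD at KRT8 was in A549 alone. Both of these alternatives were chosen after seeing the data. With canonical starts only, JunB was called at 2 genes in B2B and JunD at 1. A window of 100 kb gave 11 Jun-family regions in B2B alone. A motif distance of 25 bp lowered the share of summits with the motif to 43.17%, from 56.83%, in both lines together and to 39.18%, from 52.58%, in A549. Where an A549 and a B2B peak of a region failed 50% reciprocal overlap or a summit distance of 150 bp, the region was counted in each line alone. Single A549-alone calls were lost for JunB at KRT19 with lists of equal length, for Jun at KRT19 at a −log10 q of at least 5, and for pol II at KRT81 with the summit inside the window. Depth was not given, so a missing peak means not called at this depth.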
